A study of Mus musculus with 6 samples.

Results

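The 10 genes described here take part in fatty acid uptake and transport in the heart or in its control. They are Lpl, Gpihbp1, Angptl4, Cd36, Slc27a1, Slc27a4, Slc27a6, Fabp3, Fabp4 and Fabp5. They were chosen by name, as the lipoprotein lipase system, the fatty acid transporters and the fatty acid binding proteins. All 10 were found among the 19245 gene symbols of the RNA sequencing table, and all 10 passed the filter on low counts that left 14290 genes. RNA came from both ventricles of C57BL/6 mouse embryos at embryonic day 17.5, with 2 hearts pooled per library and 3 libraries per group. The control group was Nkx2.5-Cre negative and the labelled knockout group Nkx2.5-Cre positive, and both carried floxed alleles of the estrogen-related receptors ERRa and ERRg (genes Esrra and Esrrg), nuclear receptors that regulate genes of energy metabolism. The Nkx2-5 promoter that drives Cre is active in cardiac progenitors, and only the labelled knockout group carried Cre. The measured tissue holds every cell type of the ventricle.

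The heart takes most of its fatty acids from triglyceride-rich lipoproteins and from albumin-bound fatty acids. Lipoprotein lipase (Lpl), made largely by cardiomyocytes, is carried across capillaries by the endothelial protein GPIHBP1 and cuts triglycerides on the vessel wall, while ANGPTL4 inhibits it. Freed fatty acids pass membranes with the help of CD36 and of the fatty acid transport proteins of the SLC27 family, which also couple fatty acids to coenzyme A, and are bound inside cells by fatty acid binding proteins (FABP). Near birth the heart turns from glucose and lactate to fatty acids as its main fuel.

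Libraries held 12807221 to 32663838 estimated counts over annotated genes. Levels are in CPM, the read count of a gene relative to the TMM-scaled size of its library. Genes were called at an adjusted p under 0.05 in the quasi-likelihood test of edgeR, with p-values adjusted by Benjamini-Hochberg over all 14290 genes. In mean ± SD over 3 libraries, Esrra fell from 75.8 ± 6.56 CPM in controls to 42.9 ± 1.63 CPM, but Esrrg rose from 81.7 ± 2.07 to 115.6 ± 5.29 CPM, with edgeR adjusted p of 3.67e-07 and 2.22e-06. Esrrg therefore went against its label. Whole transcripts were counted, exons outside the deleted part included, so these levels do not measure loss of the floxed exons. Directions are therefore given for libraries by their label. The labels do not say whether the pools came from separate litters, so p-values measure the spread between these pools. The sex makeup of the pools differed too: summed Y-linked genes, relative to the unscaled gene total, stood at 0.0567 to 112.2 CPM across controls against 145.6 to 323.9 CPM across labelled knockouts. Every labelled knockout pool lay above every control pool in this level, so Y-linked level and label went together. Pools of mixed sex by these genes and Xist were present in both groups. Control replicate 2 and labelled knockout replicates 2 and 3 had Y-linked levels of 112.2, 145.6 and 167.0 CPM. Their Xist levels were 1170, 1190 and 1263 CPM, in the same order.

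Of the 10 genes, 6 fell, 2 rose and 2 were not called in the labelled knockout libraries. The falls were those of Fabp3, Slc27a1, Cd36, Fabp4, Gpihbp1 and Slc27a4. The rises were those of Fabp5 and Slc27a6, while Lpl and Angptl4 did not pass. Among all genes tested 44.4% were called, 22.0% of the tested genes being lower and 22.4% higher. The median log2 fold change of the 10 genes was -0.35, against 0.01 over all genes. Fabp3 and Slc27a1 fell at least 2-fold, as did 3.21% of all genes. The groups did not overlap for 8 of the 10 genes, as was the case for 53.7% of all genes. These counts describe a short list, and no test was made of the list as a whole.

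**Figure D1:**
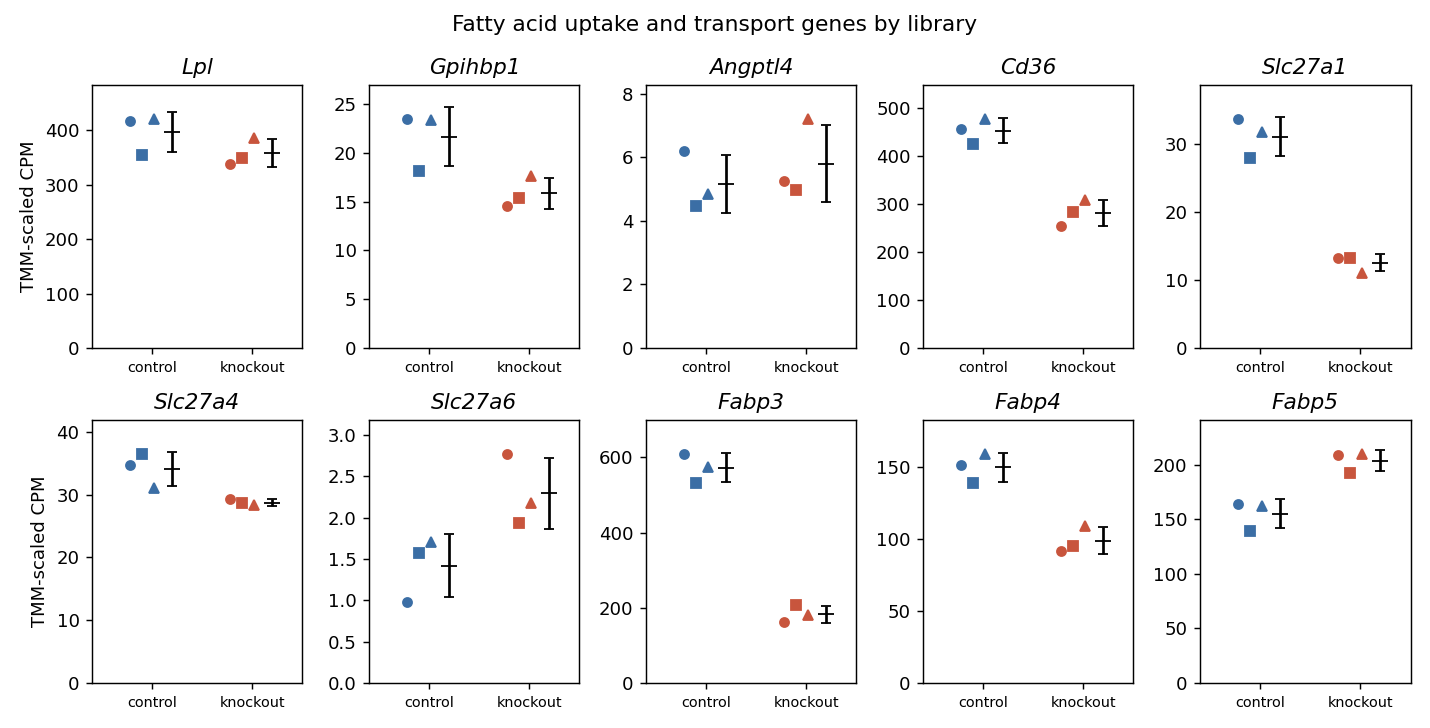
TMM-scaled CPM of each of the 10 genes (vertical axes from 0, each gene with its own scale) in the 3 control and 3 labelled knockout libraries. Circles, squares and triangles are replicates 1, 2 and 3, and black marks give the mean ± SD. Fabp3 stands at 532.5 to 609.2 CPM across controls against 161.4 to 206.4 CPM across labelled knockouts, while the groups overlap for Lpl and Angptl4.

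**Figure D2:**
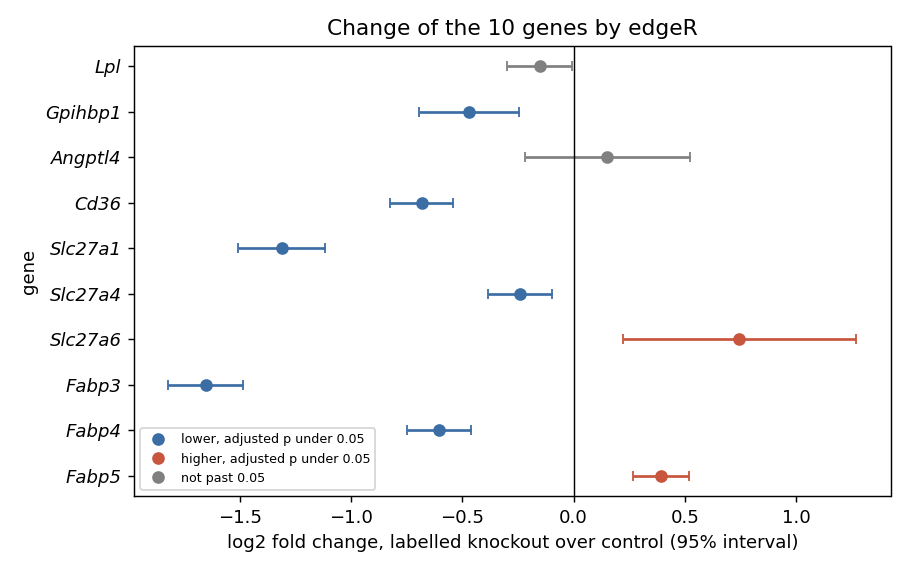
Log2 fold change of the labelled knockout over the control group by edgeR (horizontal axis) for each gene, with bars giving the 95% interval. Fabp3 lies lowest at -1.65 and Slc27a6 highest at 0.75, and the 2 grey points, Lpl and Angptl4, did not pass.

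Lpl, the lipase itself, was not called. It lies on chromosome 8 of mm10 at 68880555 to 68906932, and stood at 416.0, 354.3 and 419.7 CPM across controls against 336.8, 348.8 and 386.1 CPM across labelled knockouts. The groups overlapped, since control replicate 2 lay below labelled knockout replicate 3. The log2 fold change was -0.15 with a 95% interval of -0.30 to -0.01 and an adjusted p of 0.0832 by edgeR, so that the unadjusted interval only just left out 0. The call depended on single libraries and on scaling. It was gained without control replicate 2 (-0.23, adjusted p 0.00897) or labelled knockout replicate 3 (-0.22, 0.0222), and the value was 0.000288 when libraries were scaled to all their reliable reads, a scaling described below.

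Of the partners of the lipase, the endothelial anchor Gpihbp1 fell and the inhibitor Angptl4 was not called, and the difference between them was not tested. Gpihbp1 (chromosome 15, 75596658 to 75598213) stood at 23.4, 18.2 and 23.4 CPM across controls against 14.5, 15.4 and 17.6 CPM across labelled knockouts. All labelled knockouts lay below all controls, the nearest pair being 17.6 and 18.2 CPM. It fell 1.37-fold, at a log2 fold change of -0.47 ± 0.104 (SE) and edgeR adjusted p 0.00256. The call was lost with the Y-linked level as a covariate, where the log2 fold change was -0.14 (adjusted p 0.507). In a fit without control replicates 1 and 3 and labelled knockout replicate 1, which left 1 control, the log2 fold change was -0.13. Each of those pools was of 1 sex by these genes and Xist, but not of the same sex. Y-linked genes stood at 0.0567 and 0.167 CPM in those controls, and Xist at 0.949 CPM in that labelled knockout. Angptl4 (chromosome 17, 33774900 to 33781575) was low, at 6.20, 4.48 and 4.83 CPM in controls and 5.25, 4.96 and 7.19 CPM across labelled knockouts. These values overlapped, with a 95% interval for the log2 fold change of -0.22 to 0.52 and an adjusted p of 0.513 by edgeR.

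Cd36, which encodes the scavenger receptor that takes up long-chain fatty acids, lies on chromosome 5 at 17781690 to 17888959 and fell. It stood at 456.1, 425.4 and 477.1 CPM across controls against 254.3, 284.8 and 308.6 CPM across labelled knockouts, with no overlap. The fall had a log2 fold change of -0.68 ± 0.0652 (SE) and edgeR adjusted p 2.73e-06. Over the alternatives tried its log2 fold change ran from -0.75 to -0.52, and the call held in each.

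The level of Cd36 was also read by transcript start. The table holds 5 transcripts of Cd36 (minus strand of chromosome 5), which begin at 3 places. Those are an innermost start at 17835896, a middle start 13896 bases upstream at 17849792, and an outermost start 53063 bases upstream at 17888959. In the GENCODE annotation the matching transcripts have the same first coding base and differ in 2 or 3 noncoding exons before it, so they encode CD36 from the same start codon. GENCODE begins the innermost transcript at 17835696 and the outermost at 17888747, downstream of the starts used here. Estimated counts were summed per start. The 250 bases before the innermost start (RefSeq table, GRCm38.p6, minus strand, chr5:17835897-17836146) are shown because its transcripts moved less than those of the middle start. Capitals mark a 16-base unit repeated in tandem, from 111 to 80 bases before the start.
Cd36 innermost start: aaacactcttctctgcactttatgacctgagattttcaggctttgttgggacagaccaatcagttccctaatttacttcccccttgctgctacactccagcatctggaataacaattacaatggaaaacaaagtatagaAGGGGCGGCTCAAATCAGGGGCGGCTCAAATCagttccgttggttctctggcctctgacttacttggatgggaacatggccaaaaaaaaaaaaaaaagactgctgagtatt

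Transcripts of the middle start stood at 247.6, 220.6 and 241.0 CPM across controls against 80.8, 102.9 and 105.4 CPM across labelled knockouts. They fell 2.45-fold, with no overlap, a log2 fold change of -1.30 ± 0.0987 (SE) and edgeR adjusted p 4.01e-05 over 16608 start groups, of which 34.4% were called. Transcripts of the innermost start stood at 184.2, 178.6 and 209.5 CPM across controls against 155.4, 166.1 and 177.2 CPM across labelled knockouts. The groups lay close together without overlap, and the log2 fold change of -0.20 did not pass (95% interval -0.36 to -0.04, adjusted p 0.0590 by edgeR). The outermost start was minor, at 25.8 ± 0.757 CPM in controls, and its log2 fold change of -0.37 did not pass (adjusted p 0.118 by edgeR).

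The difference between starts was tested itself, as whether a start moved differently from the rest of its gene. Of 4199 starts in genes with several, 0.738% passed, and 2 Cd36 starts were among them. These 2 are not separate results. Each start was set against the rest of the gene, and the middle and innermost starts made up most of it, at means of 52.2% and 42.1% in controls. The middle start moved by -0.62 on the log2 scale relative to the rest of Cd36 (adjusted p 0.00589 by edgeR) and the innermost by 0.48 (adjusted p 0.0416). The middle start held 54.2%, 51.8% and 50.5% of the Cd36 estimated counts in controls and 31.8%, 36.1% and 34.2% in labelled knockouts. The mean share went from 52.2 ± 1.86% to 34.0 ± 2.17%, with an exact two-sided permutation p of 0.1, the smallest that 3 against 3 allows. The call on the middle start was lost without control replicate 1 (-0.59, adjusted p 0.0779) or control replicate 2 (-0.63, 0.0532). That on the innermost start was lost under more settings, among them without control replicate 1 (0.45, adjusted p 0.252). Both start calls were lost with the Y-linked covariate, at -0.59 (adjusted p 0.232) for the middle and 0.48 (0.382) for the innermost start. Without the 3 libraries of 1 sex, which left 1 control, the values were -0.56 and 0.46.

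These starts rest on estimated counts: reads common to several transcripts were shared out by estimation, and reads of 50 bases can tell the starts apart only in the noncoding exons. That uncertainty does not enter the test, and the grouping by start was chosen after the transcript values were seen. Single transcripts were fitted as well. NM_001159556 and NM_001159557 of the middle start fell, with log2 fold changes of -1.15 and -1.58 and adjusted p of 0.000515 and 9.96e-05 by edgeR on 21591 transcripts, of which 22.7% were called. Of the innermost start, NM_001159555 had a log2 fold change of 0.02 (adjusted p 0.888) and NM_007643 fell, at -0.33 (0.0384). NM_001159555 and NM_007643 share their first and last bases, with lengths of 3539 and 3542 bases. How reads were divided between them rests on estimation, so they are not read as separate results. For NM_001159556, NM_001159557, NM_001159555 and NM_007643, in that order, the knockout to wild type ratio in the authors' deposited table is 0.453, 0.338, 1.02 and 0.796. The authors' FDR is 5.20e-15 for NM_001159556 and 3.02e-54 for NM_001159557. For NM_007643 it is 0.0535, not under 0.05.

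**Figure D3:**
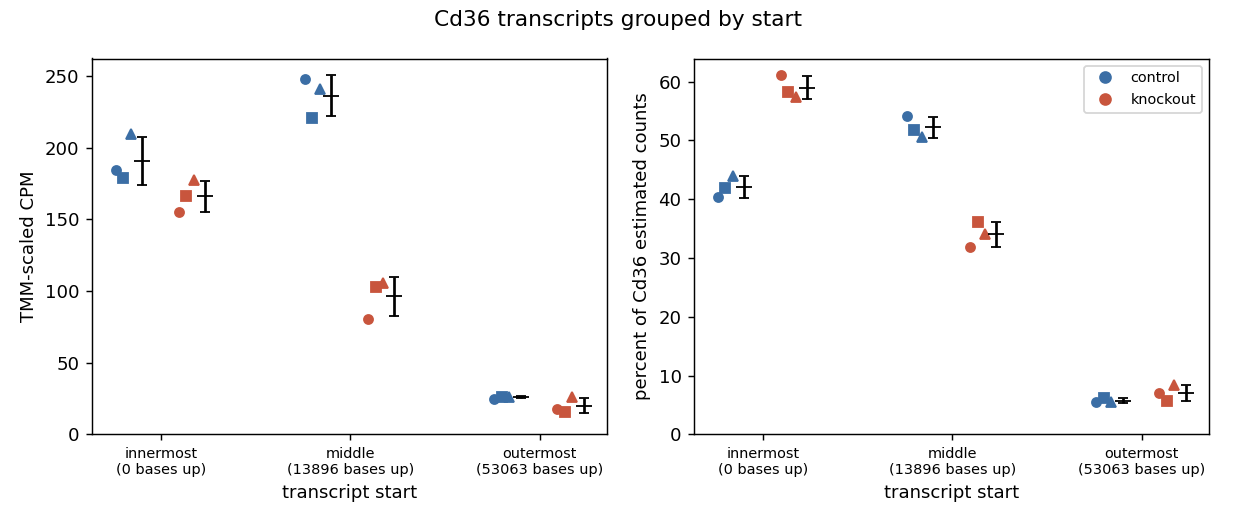
Cd36 estimated counts grouped by transcript start (horizontal axis, with the distance in bases upstream of the innermost start), as TMM-scaled CPM on the left and as percent of all Cd36 counts of a library on the right. Points are libraries and black marks the mean ± SD. The middle start falls from 236.4 to 96.4 CPM on average, while the innermost goes from 190.8 to 166.2 CPM.

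The transporters of the SLC27 family described here split. Slc27a1, which encodes FATP1, a transport protein of heart and skeletal muscle, lies on chromosome 8 at 71568927 to 71586708. It stood at 33.7, 28.0 and 31.7 CPM across controls against 13.3, 13.2 and 11.1 CPM across labelled knockouts. Every labelled knockout was below every control, in a 2.48-fold fall at a log2 fold change of -1.31 ± 0.0896 (SE) and edgeR adjusted p 1.13e-07. Slc27a4, the gene of the widely expressed FATP4 (chromosome 2, 29802680 to 29817522), fell 1.19-fold. It went from 34.7, 36.5 and 31.1 CPM to 29.3, 28.6 and 28.3 CPM, with edgeR adjusted p 0.010. The call on Slc27a4 was lost when libraries were scaled to all reliable reads (log2 fold change -0.08, adjusted p 0.405). In the authors' deposited table its transcript has a ratio of 0.840 and an FDR of 0.373.

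Slc27a6 encodes FATP6, which in humans is the transport protein most restricted to the heart. In these embryonic ventricles it was the lowest of the 10 genes, with 17 to 30 counts in each control and 29 to 93 counts in each labelled knockout library. It stood at 0.985, 1.57 and 1.71 CPM across controls against 2.77, 1.94 and 2.18 CPM across labelled knockouts (chromosome 18, 58556240 to 58612869). All labelled knockouts lay above all controls, at a log2 fold change of 0.75 ± 0.242 (SE) and edgeR adjusted p 0.0240. In the authors' deposited table its transcript has a ratio of 1.61 and an FDR of 0.578. At these counts the call was fragile. It was lost by DESeq2 (adjusted p 0.0799), without control replicate 1 (0.121) or labelled knockout replicate 1 (0.114), with the Y-linked covariate (0.497) and without the 3 libraries of 1 sex (0.492).

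Among the binding proteins the one of muscle fell most. Fabp3 encodes the heart-type FABP of the cardiomyocyte cytosol (chromosome 4, 130308778 to 130315463). It stood at 609.2, 532.5 and 575.9 CPM across controls against 161.4, 206.4 and 179.9 CPM across labelled knockouts. The groups were far apart, in a 3.14-fold fall at a log2 fold change of -1.65 ± 0.0776 (SE) and edgeR adjusted p 3.30e-09. GENCODE places 161 of its 823 exonic bases under exons of genes on the other strand, among them Zcchc17. The sources used here do not say whether counting used strand. Zcchc17 stood at 19.5 ± 0.944 CPM in controls and 18.3 ± 0.635 CPM across labelled knockouts, and the part of the overlap in the Fabp3 values was not tested.

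The 250 bases before the RefSeq start of Fabp3 (GRCm38.p6, plus strand, chr4:130308488-130308737) are shown because this gene moved most of the 10. Capitals mark the letters TATTTAAA, a TATA-like run from 29 to 22 bases before that RefSeq start. The Fabp3 transcript counted here begins farther downstream, at 130308778.
Fabp3: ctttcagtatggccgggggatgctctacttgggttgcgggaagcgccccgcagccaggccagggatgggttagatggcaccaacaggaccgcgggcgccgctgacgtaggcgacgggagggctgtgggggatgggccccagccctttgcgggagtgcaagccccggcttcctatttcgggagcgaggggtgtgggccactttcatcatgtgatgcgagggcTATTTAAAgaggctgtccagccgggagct

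Estrogen-related receptors bind an extended AGGTCA element, so its letters were sought in the windows. The RefSeq table had entries for Cd36, Fabp3, Slc27a1 and Slc27a4, with 6 windows of 250 bases. On both strands TNAAGGTCA was in 0 of the 6 windows and in 1.14% of all 32851 windows of that length, and its shorter core AAGGTCA, which it contains, in 0 of 6 and 4.08%. The bare AGGTCA, held by both of these, was in 1 of the 6 windows, that of the innermost Cd36 start, and in 14.0% of all windows. No window of the middle Cd36 start is shown here, so these counts are not read as covering it. The run TATTTAAA, chosen after the Fabp3 window was read, was in 1.71% of windows. The letters CCGCCC, bound by Sp1-type factors, occurred 2 times in the Cd36 window, once in each repeat unit on the other strand, and were in 4 of the 6 windows (Cd36, both of Slc27a1, and Slc27a4) and in 32.7% of all windows. These are matches of letters in short windows, and sites farther away were not searched.

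Fabp4, the adipocyte-type binding protein that capillary endothelium and macrophages also make, fell 1.52-fold. It stood at 151.0, 138.5 and 158.7 CPM across controls against 91.2, 95.2 and 109.0 CPM across labelled knockouts (chromosome 3, 10204343 to 10208576), with no overlap. The log2 fold change was -0.61 (SE 0.0662) and the adjusted p 9.18e-06 by edgeR. Fabp5, the epidermal-type protein also made by capillary endothelium, lies nearby on the same chromosome (10012585 to 10016610) and went the other way. It rose 1.31-fold, from 163.6, 139.6 and 161.9 CPM to 209.0, 192.2 and 209.7 CPM, with all labelled knockouts above all controls. Its log2 fold change was 0.39 (SE 0.0581) and its adjusted p 0.000125 by edgeR. Transcripts of 2 annotated pseudogenes match Fabp5 and 1 matches Fabp3 over at least 100 bases at 95% identity or more, and a stretch of Slc27a1 of up to 162 bases matches 22 other genes, so the values of these genes are uncertain to that extent.

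The deposited RPKM values, which are per length, allow levels of different genes to be set side by side within a library. In controls the order of RPKM was Fabp3 (320.1 ± 15.2), Fabp4 (83.4 ± 5.77), Fabp5 (58.2 ± 4.37), Cd36 (46.6 ± 2.77), Lpl (35.1 ± 2.95), Gpihbp1 (9.72 ± 1.26), Slc27a1 (3.98 ± 0.298), Slc27a4 (3.05 ± 0.249), Angptl4 (0.970 ± 0.145) and Slc27a6 (0.197 ± 0.0569). No neighbours in that order overlapped over the 3 libraries. In the labelled knockouts Fabp3 was still highest, at 113.1 ± 9.12 RPKM, but Fabp5 (85.1 ± 7.42) came next, then Fabp4 (61.1 ± 5.41). Lpl and Cd36 followed with overlapping libraries, and Slc27a4 (2.85 ± 0.174) stood above Slc27a1 (1.79 ± 0.212).

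The makeup of the binding protein RNA can be read from the same values. Fabp3 made up 70.0%, 69.7% and 68.3% of the summed RPKM of Fabp3, Fabp4 and Fabp5 in controls and 41.1%, 47.9% and 41.9% in labelled knockouts. Its mean share went from 69.3 ± 0.908% to 43.6 ± 3.74%, that of Fabp5 from 12.6 ± 0.318% to 32.8 ± 2.88% and that of Fabp4 from 18.1 ± 0.731% to 23.5 ± 1.65%. Slc27a1 made up 57.1%, 50.8% and 57.4% of the summed RPKM of the 3 Slc27 genes in controls and 36.3%, 37.5% and 33.4% in labelled knockouts. Slc27a4 was thereby the larger share in each labelled knockout library. The groups did not overlap for any of these shares, and each had an exact two-sided permutation p of 0.1, the smallest possible with 3 against 3. Shares of the same sum depend on each other, so they are not separate results. The Fabp4 share rose although its mean RPKM went from 83.4 to 61.1. Shares within a library do not depend on how libraries are scaled to each other.

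**Figure D4:**
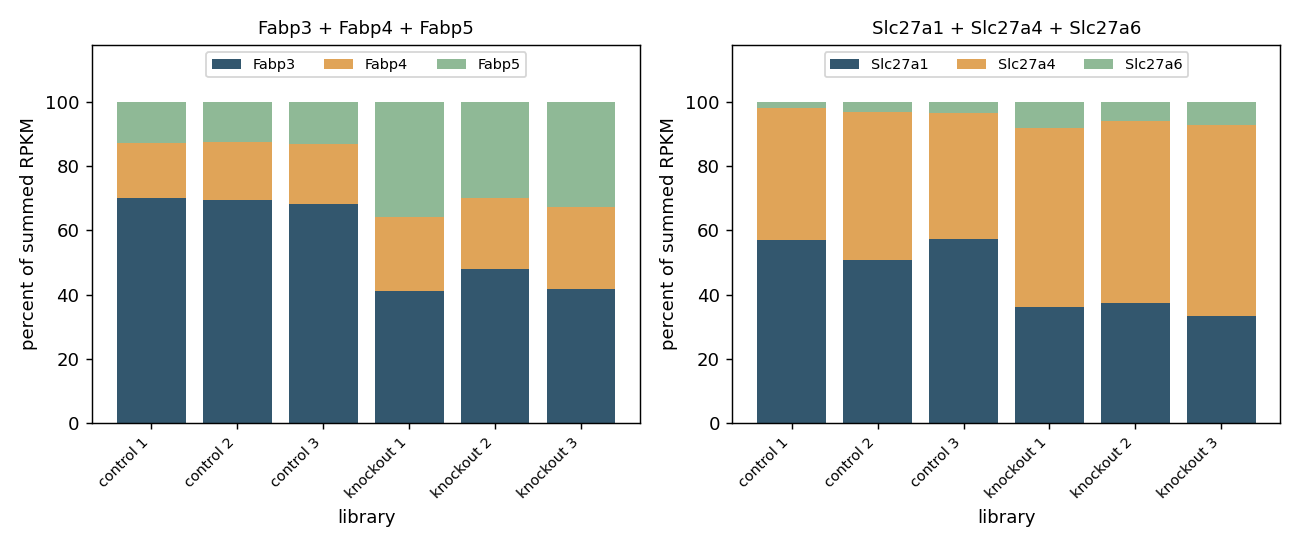
Percent of the summed RPKM (vertical axis) of Fabp3, Fabp4 and Fabp5 on the left and of Slc27a1, Slc27a4 and Slc27a6 on the right, for each of the 6 libraries. The Fabp3 share is 68.3% to 70.0% in controls and 41.1% to 47.9% in labelled knockouts, and the Slc27a1 share 50.8% to 57.4% and 33.4% to 37.5%.

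The other genes of fatty acid handling were read from 3 lists chosen by textbook role. Their counts are to be read against all tested genes, of which 44.4% were called, 22.0% lower and 22.4% higher. The median log2 fold change of all genes was 0.01. In a list of lipase partners and lipoprotein receptors 10 of 15 tested genes rose and 2 fell, the median of log2 fold changes being 0.35. The risers included Sdc4, a heparan sulfate proteoglycan of the cell surface, which went from 30.8 ± 3.79 to 60.0 ± 8.65 CPM (adjusted p 7.48e-06 by edgeR). The proprotein convertases Pcsk6 and Pcsk5, of a family that cleaves lipase and ANGPTL proteins, rose from 14.6 ± 2.13 to 28.1 ± 3.73 and from 25.4 ± 1.34 to 36.9 ± 2.94 CPM. Lrp1, an endocytic receptor for lipoprotein remnants, rose from 245.2 ± 6.87 to 392.7 ± 48.7 CPM. Lmf1, the factor that folds lipoprotein lipase in the endoplasmic reticulum, fell from 26.8 ± 1.92 to 18.2 ± 1.59 CPM (adjusted p 9.61e-05 by edgeR). Vldlr, the very low density lipoprotein receptor, fell from 296.3 ± 19.8 to 249.1 ± 12.2 CPM, a call lost when scaled to all reliable reads (adjusted p 0.191) and with the Y-linked covariate (0.272).

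In the list of transport, binding and activation genes 9 of 19 tested were lower and 2 higher, the median of log2 fold changes being -0.11. The deepest falls were those of Acsl1, the main acyl-CoA synthetase of the heart, from 327.2 ± 29.9 to 68.3 ± 3.22 CPM, and of Got2, an aminotransferase also described as a fatty acid binding protein of the plasma membrane, from 443.2 ± 17.5 to 144.1 ± 5.45 CPM. Both had an adjusted p of 7.35e-11 by edgeR. The synthetases Acsl3 and Acsl4 fell from 137.3 ± 3.69 to 76.7 ± 2.19 CPM and from 73.5 ± 0.851 to 46.2 ± 3.95 CPM. Acbd3, an acyl-CoA binding domain protein of the Golgi, rose from 46.5 ± 1.84 to 62.7 ± 3.13 CPM, and Scarb2, a lysosomal relative of CD36, from 169.8 ± 6.14 to 196.3 ± 9.44 CPM.

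In the list of regulators 12 of 23 tested fell and 5 rose, the median of log2 fold changes being -0.15. Ppara, the nuclear receptor that senses fatty acids in heart muscle, fell from 88.3, 77.1 and 80.9 CPM to 21.6, 28.2 and 25.4 CPM, with a log2 fold change of -1.74 and an adjusted p of 4.86e-09 by edgeR. Vegfb, a growth factor that promotes endothelial fatty acid uptake, fell from 38.6 ± 3.50 to 21.8 ± 0.908 CPM, and its coreceptor Nrp1 from 497.5 ± 6.29 to 404.7 ± 7.11 CPM. Aplnr, the endothelial apelin receptor, fell from 64.2 ± 9.08 to 37.4 ± 1.88 CPM. The coactivator Ppargc1a rose from 286.3 ± 27.0 to 433.6 ± 27.7 CPM, and Rxra, the partner of PPAR receptors, from 87.3 ± 5.35 to 101.4 ± 1.55 CPM (adjusted p 0.00310 by edgeR).

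**Figure D5:**
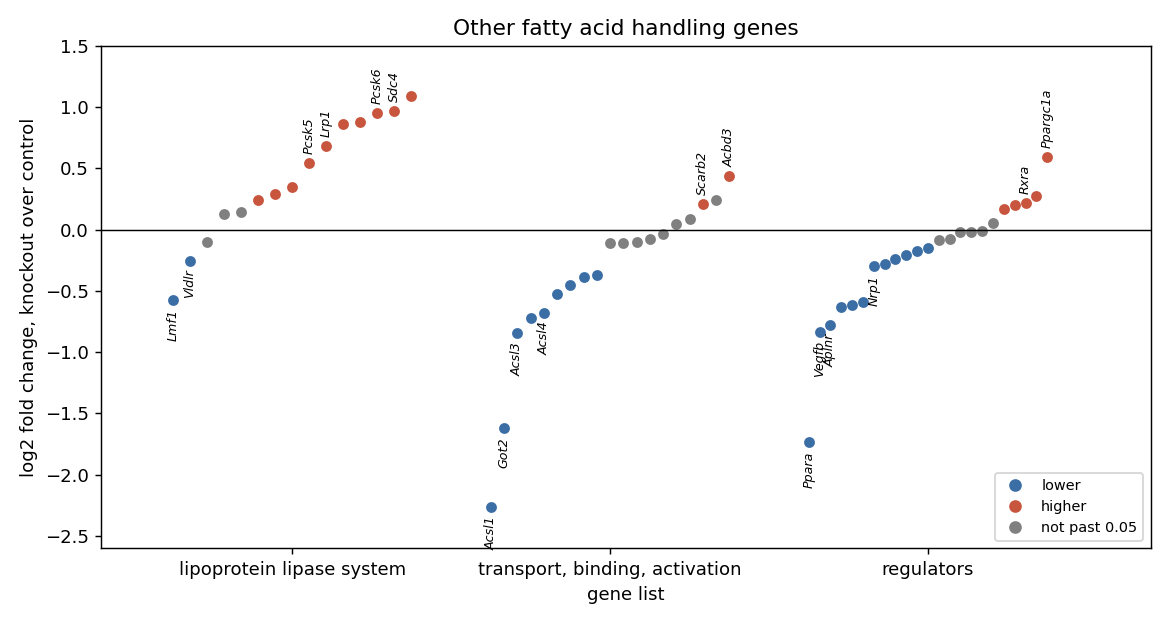
Log2 fold change by edgeR (vertical axis) of the tested genes in 3 lists, ordered by size within each list, with blue for called lower, red for called higher and grey for not called. Named in each list are the called genes of smallest adjusted p, up to 4 in the majority direction and 2 in the other. Acsl1 lies lowest at -2.26, and 10 of the 15 genes of the lipase list are red.

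Levels across the 6 libraries also allow genes of like pattern to be found, among 12276 genes averaging 50 counts or more, by the distance between log2 CPM values centred per gene. The genes nearest to Fabp3 were Il15ra (distance 0.0838), Ppara (0.0994) and Sdhb (0.157). Nearest to Slc27a1 were Auh, Mrm3 and Kifc3 at 0.111 to 0.177, and nearest to Cd36 were Acadl, Cox11 and Pln at 0.104 to 0.122. With 2 groups, such distances mostly measure a like difference between groups.

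Markers of cell types moved between the groups as well, beside 22.0% of all tested genes called lower and 22.4% called higher. In bulk tissue fewer cells of a type and less RNA per cell cannot be told apart. Of 10 cardiomyocyte markers 8 fell, and their summed level was 47773 to 51473 CPM in controls and 34906 to 38758 CPM across labelled knockouts. Of 12 endothelial markers, the cell type of Gpihbp1, 7 fell and 3 rose, at 1221 to 1302 against 1122 to 1178 summed CPM. Cdh5 and Kdr, the highest of them, went from 234.7 and 215.2 CPM to lower levels with adjusted p of 7.53e-05 and 1.12e-06 by edgeR, although the call of Cdh5 was lost when scaled to all reliable reads (0.0720). All 4 endocardial markers rose (209.3 to 218.2 against 331.2 to 385.0 summed CPM), as did all 8 fibroblast markers (5234 to 5528 against 7355 to 8536).

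Of 6 mural cell markers 4 fell, and of 10 macrophage markers 3 rose and 1 fell (80.01 to 92.8 against 101.1 to 110.6 summed CPM). The adipocyte list, of which Fabp4 would be part, was nearly absent: Adipoq had 0 counts in each control library, and the summed level of 8.30 to 11.1 CPM came almost wholly from Lipe. None of the 7 erythroid markers was called, and labelled knockout replicate 2 held the most, at 511.4 CPM of Hbb-bs. Of 5 epicardial markers 3 rose, and of 3 tested skeletal muscle markers 3 rose from a low level (5.04 to 7.07 against 12.1 to 13.3 summed CPM). The part of these cell type markers in the values of the 10 genes was not tested.

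Scaling bore on the small changes. The share of reads that lay fully in exons was 35.5% to 37.1% in controls and 37.6% to 40.6% in labelled knockouts. When libraries were scaled to all their reliable reads, as the deposited RPKM values are, in place of TMM, the median log2 fold change of all genes moved from 0.01 to 0.16, with 5519 genes higher and 1685 lower against 3198 and 3150. With that scaling the log2 fold change was -1.50 for Fabp3, -1.15 for Slc27a1, -0.53 for Cd36, -0.45 for Fabp4, -0.31 for Gpihbp1, 0.55 for Fabp5 and 0.91 for Slc27a6, all still called by edgeR and each to be read against that median.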

How the data were processed

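Stranded, rRNA-depleted libraries were sequenced from 1 end over 50 bp, per the labels' protocols. The submitters' processing notes name mm10, TopHat2 2.0, Partek 6.6 and DESeq, without their roles. Use of strand in counting is not given in the sources used here. The deposited table holds estimated counts per transcript and RPKM values that the authors scaled by length and, judged from the values, by all reliable reads of a library. It also holds the authors' own fold (a ratio), p-value and FDR columns. The deposited read counts and percent values per library were used for depth and exon shares.

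Estimated counts of 30031 transcripts were summed to 19245 symbols and rounded, and 58 transcripts whose symbols had become dates were restored by accession. Gene ends were set 1 base lower than deposited. Genes were tested in edgeR 4.0.16 by quasi-likelihood (TMM, filterByExpr with minimum count 10 and total 15) in R 4.3.3, two-sided. Replicates are pools of 2 hearts. Starts were tested with diffSpliceDGE, copies sought with blastn 2.17.0 and shares tested by exact permutation in SciPy 1.17.1. The floor of 3 counts stands for 0.0918 to 0.234 CPM and covers counting error only, while the intervals of fold changes also hold the spread between pools.

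The 10 genes and all lists were chosen with earlier results of these data known. Named genes are the 10 genes, Esrra and Esrrg, up to 4 changed genes of the majority direction and 2 of the other per list, the highest markers, and the 3 nearest patterns. Alternatives tried were DESeq2 1.42.0 and its size factors, 2 other filters, voom (limma 3.58.1), robust dispersion, a replicate block, a Y-linked covariate and leaving out each library. Scaling to all reliable reads, leaving out libraries of 1 sex, grouping by start (with its Y-linked covariate) and the Y-linked covariate for transcripts were chosen after seeing the data.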

Additional observations from a re-analysis of the deposited data

How the results depend on the processing

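Fabp3, Slc27a1, Cd36, Fabp4 and Fabp5 kept direction and call under all 16 alternatives. With the Y-linked covariate 3404 genes changed (1638 higher, 1766 lower), and without the 3 libraries of 1 sex (control replicates 1 and 3 and labelled knockout replicate 1) 3645 did (1787 higher, 1858 lower). Of the other fatty acid handling genes, 40 as reported (17 higher, 23 lower), the Y-linked covariate left 25, with 11 higher and 14 lower. Scaled to all reliable reads 15 of them were lower, and over all genes 5519 were higher and 1685 lower. Of the 10 genes, 1 was higher by DESeq2 and under the Y-linked covariate, and 1 to 2 with a library left out. With a minimum count of 50, which removed Slc27a6 before testing, 1 was higher. Lpl turned to 0.0486 under the Y-linked covariate (adjusted p 0.706 by edgeR) and to 0.000288 scaled to all reliable reads (0.998). It was 0.0530 when the libraries of 1 sex were dropped, and was called with no filter (0.0446) and with the replicate block (0.0442). With a library left out, values ran from -0.0272 to 0.307 for Angptl4, -0.0105 to 0.0649 for Actc1, -0.153 to 0.483 for Hbb-bs, -0.213 to 0.382 for Hba-a1 and -0.666 to -0.573 for the middle Cd36 start against its gene. The cause of these changes was not tested. The Fabp3 share fell by 24.4 to 27.9 points and the Slc27a1 share by 15.3 to 21.6 points over the 9 settings run for shares, the Slc27a1 difference being -15.3 points without the 3 libraries of 1 sex, where 1 control was left and no test was made. The middle Cd36 start moved by -0.592 (adjusted p 0.232 by edgeR) under the Y-linked covariate and by -0.562 without the libraries of 1 sex. Of the transcripts of the 10 genes, 9 were called as reported, 5 under that covariate and 4 without those libraries.

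With the replicate block 6410 genes and 9 of the 10 genes changed, the addition being Lpl, and the innermost Cd36 start was no longer called (adjusted p 0.0872). Deviations of same-numbered libraries correlated at -0.0152 to 0.104, so the numbers were not taken to pair them. Depth limits Slc27a6 and Angptl4, which had as few as 17 and 57 counts in a library.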
